A study of Rattus norvegicus with 15 samples.

Results

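Pyruvate dehydrogenase, the kinases that switch it off, the carriers that bring pyruvate to it and the enzymes on either side of it were read in epididymal fat, the visceral depot beside the testis, of obese and lean rats. The members were 10 named genes: the kinases Pdk1, Pdk2 and Pdk4, the complex subunits Pdha1, Pdhb and Dlat, the pyruvate carrier subunits Mpc1 and Mpc2, pyruvate carboxylase (Pcx, Pc in RefSeq) and citrate synthase (Cs). A probe set, the group of probes read together for a transcript, was taken where the platform annotation gave it one of these genes and no other. That gave 9 of the 14217 genes named on the array, with 16 of its 31042 probe sets other than controls, and Dlat, the E2 core of the complex, had none. Of the 16, 14 passed a filter on dim probe sets that kept 18625, and the dimmest probe sets of Pdk2 and of Cs did not. The genes were chosen with the contrast of obese and lean rats in these data known, so that contrast is given below as a description and supports nothing.

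The diet-induced obese group held 7 male Long-Evans rats fed a diet high in fat and sucrose from weaning, and the lean group held 8 males of the same colony fed regular chow from weaning. All arrived at 14 weeks of age and had 2 weeks to acclimate. They were housed singly with free access to food and were killed at 26 weeks, with the blood of that week described as fed. Both groups had been fasted overnight for a glucose test at 21 weeks and for a blood sample at 25 weeks, 1 week before they were killed. Diet and obesity changed together and cannot be told apart. Each rat had 1 Affymetrix RAE230_2 array, and no obese rat numbered 4 was analysed here.

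Pyruvate, made from glucose in the cytosol, enters the mitochondrion through a carrier built of Mpc1 and Mpc2. Inside, the pyruvate dehydrogenase complex turns it into acetyl-CoA, and pyruvate carboxylase turns it into oxaloacetate; citrate synthase joins both products into citrate, which fat cells export for fatty acid synthesis or burn. Kinases of the Pdk family phosphorylate the E1 alpha subunit and shut the complex, and Pdk4 is the isoform known to be induced by fasting, fatty acids and glucocorticoids and held down by insulin.

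The values were MAS5 signals, a brightness on a linear scale that the authors had already scaled to a common trimmed mean of about 1500.4 per array; the number of arrays limits their precision. Signals of different probe sets cannot be set against each other, so each is compared between rats only. A pair of arrays with opposite labels, that of obese rat 1 and that of lean rat 7, gave nearly the same signals. The SD of their log2 difference over the filtered probe sets was 0.22, against 0.37 to 0.61 for the other 104 pairs of arrays, and 64.7% of probe sets were within 10% of each other, against 20.1% to 37.9%. The labels do not say whether an array of the pair is misplaced, or which, and the cause of the likeness was not tested. Values are therefore given with all 15 arrays and without this pair, which leaves 6 obese and 7 lean rats. All 8 adipocyte markers listed, adiponectin and perilipin among them, passed the filter. The log2 ratio of the 3 prime to the 5 prime Gapdh control probe sets, a sign of RNA quality, averaged 0.77 ± 0.28 in obese rats (SD, n = 7) and 1.05 ± 0.26 in lean rats (SD, n = 8; exact two-sided permutation p = 0.0737).

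Pdk4 (Entrez gene 89813), the kinase that shuts the complex, had higher signals in obese fat by its brighter probe set and overlapping signals by its other one. On probe set 1378074_at the obese rats had a lowest signal of 1321, a median of 2841 and a highest of 4336, against 816, 1460.1 and 1879 in lean rats. Of the 7 obese rats, 6 lay above the highest lean rat, and the one that did not was rat 1 of the near-identical pair. Means were 2804 ± 949 in obese rats and 1444 ± 324 in lean rats (SD, n = 7 and 8), a log2 fold change of 0.88 with a 95% interval of 0.45 to 1.31 on the scale log2(signal + 79.9). Without the pair the lowest obese rat, at 2288, stood above the highest lean rat, at 1879, and the log2 fold change was 1.03 ± 0.18 (SE), with an interval of 0.64 to 1.41, or 2.04-fold. In whole tissue, more cells that hold a transcript and more of it per cell cannot be told apart.

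On the other Pdk4 probe set, 1369150_at, obese rats had a lowest signal of 719.6, a median of 1200.0 and a highest of 1476, against 749, 1011 and 1345.5 in lean rats, so the groups overlapped over nearly their whole range. Its log2 fold change was 0.12 (95% interval -0.21 to 0.45) with all arrays and 0.17 (-0.15 to 0.49) without the pair, an interval that did not reach the lower end of that of 1378074_at. Obese rat 1 was the lowest obese rat on both probe sets, and obese rats 2 and 8 were above the obese median on both. Obese rat 3 was at the obese median on 1378074_at and above it on 1369150_at. Obese rat 6, the highest on 1378074_at at 4336, had 1101 on 1369150_at, below the obese median. Across rats of a group the 2 probe sets had Pearson r 0.69 in obese rats and 0.47 in lean rats (n = 7 and 8; exact permutation p adjusted over 12 such pairs of probe sets = 0.267 and 0.331). Without the pair r was 0.23 in obese rats and 0.47 in lean rats (n = 6 and 7), so much of the obese value rests on obese rat 1. Where on the Pdk4 transcript each probe set lies was not analysed here.

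**Figure D1:**
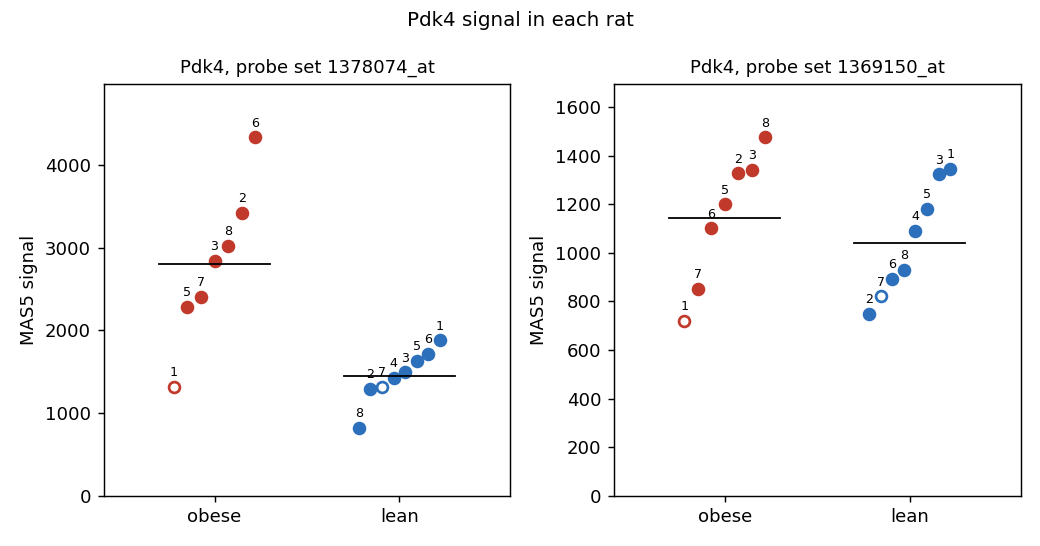
MAS5 signal (vertical axis, linear, from 0) of both Pdk4 probe sets in each rat, obese left and lean right, with the rat's number beside its point, a line at the group mean and open circles for obese rat 1 and lean rat 7. On 1378074_at the filled obese points start at 2288 and the lean points end at 1879; on 1369150_at the groups overlap.

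The start regions of the 3 kinase genes are shown because these kinases act on the same subunit while their signals differed in how they stood between the groups. Each line is the 250 bases before the start used in the RefSeq promoter table (rat build GRCr8), read 5′ to 3′ along the gene's strand, and capitals mark matches to 1 of 7 short motifs on either strand. Pdk4 lies on the minus strand at chr4:34568330-34568579, Pdk1 on the plus strand at chr3:77113264-77113513 and Pdk2 on the minus strand at chr10:80483913-80484162. That start is the edge of the annotated gene for Pdk4, but for Pdk1 and Pdk2 it lies inside the gene, so that the last 50 and 76 bases of their stretches are within the annotated gene.
Pdk4: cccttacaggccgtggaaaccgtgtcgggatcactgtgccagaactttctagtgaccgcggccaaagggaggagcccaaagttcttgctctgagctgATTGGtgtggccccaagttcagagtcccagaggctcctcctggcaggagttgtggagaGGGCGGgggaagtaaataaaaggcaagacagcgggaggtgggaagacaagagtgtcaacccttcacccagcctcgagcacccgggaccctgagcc
Pdk1: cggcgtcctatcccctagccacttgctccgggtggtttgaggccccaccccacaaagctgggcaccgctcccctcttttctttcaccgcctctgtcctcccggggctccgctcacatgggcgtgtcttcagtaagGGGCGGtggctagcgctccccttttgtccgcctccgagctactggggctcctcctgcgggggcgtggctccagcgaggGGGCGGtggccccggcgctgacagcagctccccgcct
Pdk2: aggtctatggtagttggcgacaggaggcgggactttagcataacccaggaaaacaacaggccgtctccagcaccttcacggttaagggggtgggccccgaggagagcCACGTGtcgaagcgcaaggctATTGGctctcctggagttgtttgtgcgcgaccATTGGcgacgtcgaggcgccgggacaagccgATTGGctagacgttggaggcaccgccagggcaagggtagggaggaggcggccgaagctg

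In the Pdk4 stretch the capitals are a CCAAT box on the opposite strand at -153 and a GC box (GGGCGG) at -95, counted from that start. Pdk1 held GC boxes at -115 and -37, and Pdk2 an E-box (CACGTG) at -143 and CCAAT boxes on the opposite strand at -122, -90 and -59. The Pdk1 box at -37 and the Pdk2 box at -59 are within the annotated gene. Of all 33469 promoter stretches of this length, 34.0% held CCAAT, 30.5% GGGCGG and 5.59% CACGTG. The letters GTAAACA (a forkhead motif, in 3.21% of all stretches), AGGTCA (the nuclear receptor half-site, 14.1%), AGGTCA repeated after 1 base (the PPAR direct repeat, which holds that half-site, 0.0508%) and TATAAA (12.9%) were in none of the 3 stretches. The Pdk4 stretch was 59.2% G or C with 9 CpG, against 69.2% with 19 in Pdk1 and 62.0% with 20 in Pdk2; the median of all stretches was 51.2% and 5. A match is a string of letters only, and nothing was measured here about binding.

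Pdk2 (81530), the kinase isoform found in most tissues, ran from 801 through a median of 1139.5 to 1854 in obese rats, against 384 through 1052 to 1369 in lean rats on 1367892_at. Obese rats 3 and 7 stood above every lean rat, and the other 5 lay among them. Means were 1259 ± 345 in obese rats and 1015.5 ± 338 in lean rats (SD, n = 7 and 8), and the log2 fold change was 0.33 (95% interval -0.14 to 0.79) with all arrays and 0.31 (-0.22 to 0.83) without the pair. Much of that rests on lean rat 1, the rat at 384: without it the values were 0.16 and 0.10. The rat number as a block gave 0.07 without the pair. With obese rat 1 out, lean rat 1 has no partner there, so that fit also takes nothing from it. Its second probe set was dim, at 71 to 137 in obese rats and 105 to 157 in lean rats. Pdk1 (116551), the isoform known as a target of hypoxia signalling, had signals of 1449 to 2789 in obese rats and 2074 to 2603 in lean rats on 1390203_at, with medians of 2374 and 2294. Its log2 fold change there was -0.06 (-0.30 to 0.18) with all arrays. On 1368079_at, where all 7 obese rats were below the lean median of 1581, it was -0.11 (-0.36 to 0.14). On that second probe set obese rats ran from 1121 to 1520.4 and lean rats from 1075 to 1759.

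The E1 subunits, which take the carboxyl group off pyruvate, overlapped between the groups on each of their 3 probe sets. Pdha1 (29554), the alpha subunit that the kinases phosphorylate, had signals of 14492 to 18058 around a median of 15056 in obese rats, against 13357 to 19120.1 around 17403 in lean rats on 1371380_at. Of the 7 obese rats, 6 were below the lean median, and the log2 fold change was -0.11 (95% interval -0.30 to 0.08) with all arrays and -0.13 (-0.35 to 0.09) without the pair. Its other probe set, 1383698_at, ran from 1577 to 3589 in obese rats and 1852 to 3585 in lean rats, with a log2 fold change of -0.04 (-0.39 to 0.31). Lean rat 1 was the lowest lean rat on both Pdha1 probe sets and obese rat 2 the lowest obese rat on both. Pdhb (289950), the beta subunit, had signals of 7882 to 9573 around 8397 in obese rats, against 8290.3 to 10867 around 8801 in lean rats. Its log2 fold change was -0.07 (-0.24 to 0.10) with all arrays and -0.09 (-0.28 to 0.10) without the pair.

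Of the carrier subunits, Mpc2 (100359982) had a lower median signal in obese rats and Mpc1 (171087) a higher one. Mpc2 ran narrowly from 6368 through 6870.2 to 7456 in obese rats, against 5812 through 8613 to 10147 in lean rats. All 7 obese rats were below the lean median, yet lean rats 1 and 8, at 6213 and 5812, were below every obese rat. The log2 fold change of Mpc2 was -0.23 (95% interval -0.47 to 0.01) with all arrays and -0.22 (-0.50 to 0.05) without the pair. Mpc1 ran from 9389 through 10768 to 12696 in obese rats, against 9272 through 10057 to 16287 in lean rats. Lean rat 8, at 16287, stood apart from the other lean rats, which ended at 10892; the log2 fold change was 0.06 (-0.19 to 0.30). The same rat was thus highest among lean rats for Mpc1 and lowest for Mpc2 and for Pdk4 on 1378074_at.

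Pyruvate carboxylase (25104), the entry that refills the cycle, had nearly equal signals: 3438 to 4615 around 3951 in obese rats and 3349 to 4779 around 4029 in lean rats, with a log2 fold change of 0.02 (95% interval -0.18 to 0.21). Citrate synthase (170587), the step that takes up the acetyl-CoA, had higher means in obese rats on each of its 3 brighter probe sets. On 1369967_at obese rats ran from 5135 through 5601 to 6285 and lean rats from 4246 through 4815 to 5531. All 7 obese rats were above the lean median and 4 above the highest lean rat, which was lean rat 7 of the near-identical pair. The log2 fold change was 0.22 (0.05 to 0.39) with all arrays and 0.26 (0.07 to 0.44) without the pair, a difference of 1.16-fold and 1.20-fold. On 1384201_at it was 0.21 (0.02 to 0.40) and 0.23 (0.02 to 0.44), and on the brightest, 1375295_at, 0.09 (-0.08 to 0.25) and 0.09 (-0.09 to 0.28). The remaining Cs probe set, 1396453_at, was dim, at 37 to 377 in obese rats and 41 to 214 in lean rats.

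**Figure D2:**
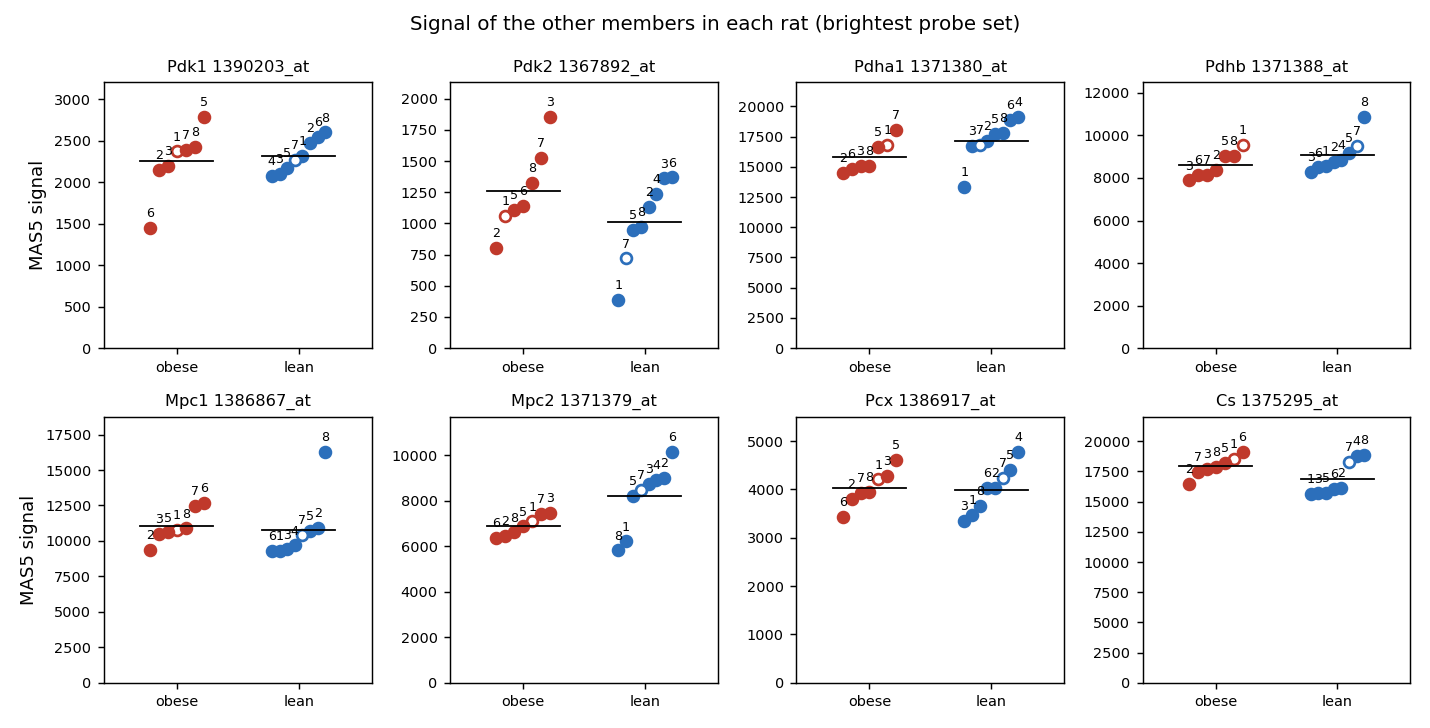
MAS5 signal (vertical axes, linear, from 0) of the brightest probe set of the 8 measured members other than Pdk4, obese left and lean right, each rat numbered, lines at group means, open circles for obese rat 1 and lean rat 7. The groups overlap in every panel, and lean rat 8 stands highest for Mpc1 and lowest for Mpc2.

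Over the 14 probe sets above the filter, 8 had positive and 6 negative log2 fold changes, with a median of 0.04, beside 42.5% positive and a median of -0.04 over all 18625. With all 15 arrays limma called none of the 14 at an adjusted p of 0.05, where it called 0% of all probe sets, and 3 had an unadjusted p below 0.05, against 15.6% of all. Without the pair it called 1, Pdk4 on 1378074_at (adjusted p over all probe sets = 0.0203), where 1.01% of all probe sets were called and 0.725% were called higher in obese rats. That probe set was also the only 1 of the 14 whose groups did not overlap; 0.918% of all did so with obese rats higher, and with all 15 arrays none of the 14 and 0.107% of all. Without the pair 8 of the 14 were again positive and 3 had an unadjusted p below 0.05, against 42.2% and 17.8% of all. Since the members were chosen on this contrast, nothing is read from these counts. The Pdk4 call was lost with the rat number as a block (log2 fold change 1.16, adjusted p = 0.137), with no filter (adjusted p = 0.0526), with the Gapdh ratio as a covariate (log2 fold change 1.13, adjusted p = 0.0686) and with the mean over both Pdk4 probe sets (0.60, adjusted p = 0.0565). The block compares only rats whose number occurs in both groups. Without the pair, obese rat 7 and lean rats 1 and 4 therefore add nothing to that fit, and rats of the same number are different animals. Among the other members it is Cs on 1369967_at that came next, at an adjusted p of 0.145.

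**Figure D3:**
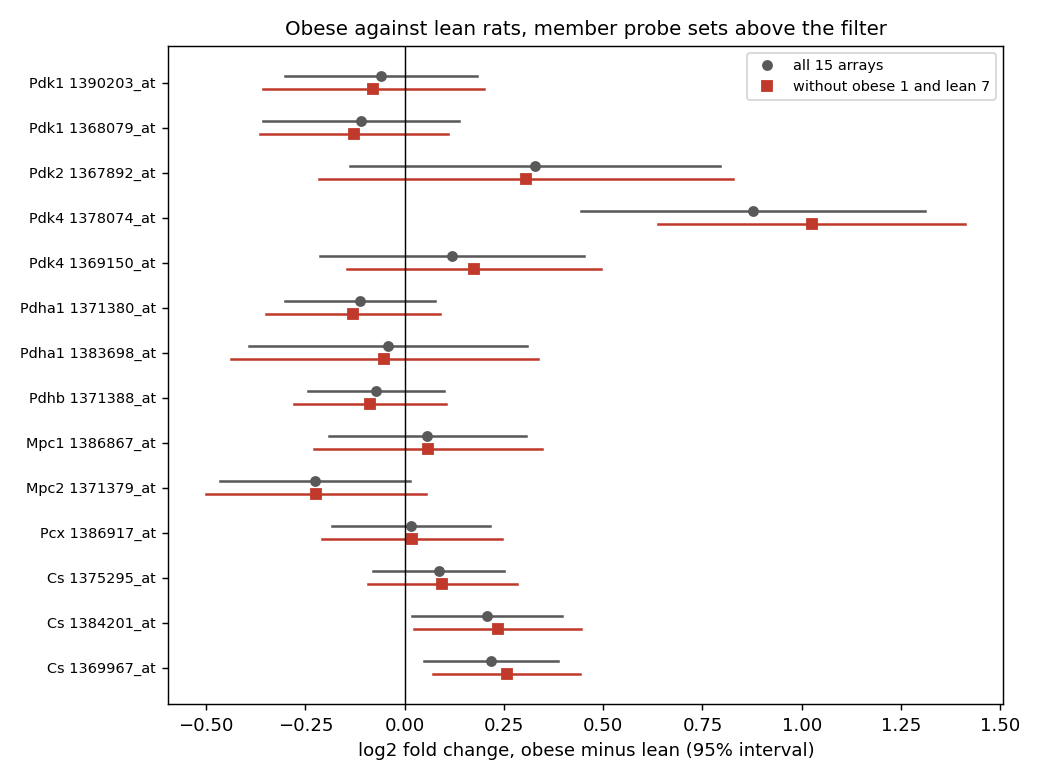
Log2 fold change, obese minus lean (horizontal axis), of the 14 member probe sets above the filter with 95% intervals, grey circles with all 15 arrays and red squares without obese rat 1 and lean rat 7. Only Pdk4 on 1378074_at lies near 1; its other probe set and the other members lie between -0.23 and 0.33.

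Whether the other members followed Pdk4 from rat to rat inside a group was tested by the brightest probe set of each. The contrast that chose the members does not enter these correlations, except that it may do so through obese rat 1. That rat, nearly identical to lean rat 7, had a Pdk4 signal of 1321, inside the lean range of 816 to 1879. The test covered 16 pairs, 8 members in each group. With all 15 arrays none passed after adjustment (exact two-sided permutation over pairings, Benjamini-Hochberg), and 3 had an unadjusted p of Pearson's r below 0.05, all in lean rats. Mpc1 had r = -0.92 and rho = -0.83 in the 8 lean rats (exact p = 0.00853 and 0.0154, adjusted 0.137 and 0.174), Pdhb r = -0.85 and rho = -0.62 (exact p = 0.0212 and 0.115, adjusted 0.141 and 0.307), and Cs r = -0.71 and rho = -0.81 (exact p = 0.0264 and 0.0218, adjusted 0.141 and 0.174). Without the 2 lean rats farthest from the Pdk4 median, r was -0.51, -0.36 and -0.49 in that order, and without lean rat 8 alone -0.63, -0.43 and -0.56. Much of the relations of Mpc1 and Pdhb, and part of that of Cs, thus rests on that rat. Its Gapdh log2 ratio, the sign of RNA quality, was 0.56, against 0.95 to 1.38 in the other lean rats. The part of RNA quality in these correlations was not tested. In the 7 obese rats 7 of 8 members had a negative r, with Pdha1 at r = -0.68 and rho = -0.82 (exact p = 0.0859 and 0.0341, adjusted 0.275 and 0.182). Leaving out obese rat 1 moved these values both ways. In the 6 obese rats without it, r was -0.30 for Pdhb (from -0.68) and 0.26 for Cs (from -0.13). It was more negative for Pdk1 at -0.91 (from -0.64), Pcx at -0.85 (from -0.66) and Pdha1 at -0.77 (from -0.68). The same held for Mpc2 at -0.72 (from -0.57) and Pdk2 at -0.37 (from -0.02). With quantile normalization Pdha1 in obese rats had r = -0.88, and its ranks ran exactly opposite to those of Pdk4 (exact permutation p for r and rho = 0.00496 and 0.000397, adjusted 0.0794 and 0.00635), so that its rank correlation passed there and not as deposited. That setting kept obese rat 1 and was not run without it. The 13 pairs other than the 3 above ran from r = -0.68 to 0.41, with adjusted p from 0.275 to 0.970. Without the near-identical pair of arrays none passed either, and the pairs below an unadjusted 0.05 were partly others. They were Pdk1 and Pcx in the 6 obese rats, at r = -0.91 and -0.85 (exact p = 0.00972 and 0.0375, adjusted 0.137 and 0.183), and Mpc1 in the 7 lean rats, at r = -0.93 (exact p = 0.0171, adjusted 0.137). Pdhb and Cs in lean rats were then at r = -0.86 and -0.73 (exact p = 0.0571 and 0.0518, adjusted 0.183 each).

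As a description with no test, genes were ranked by how closely they followed Pdk4 on 1378074_at over the 13 arrays without the pair, as deviations from the group means, among 10513 genes. The highest Pearson r was 0.85 for Ucp2, a mitochondrial carrier of the uncoupling protein family, then 0.84 for Slc27a1, a fatty acid transport protein. Next came Slc15a3, a lysosomal peptide and histidine transporter, Tbc1d9, a TBC-domain protein, and Fev, an ETS-family transcription factor, at 0.83 each. The place of Fev rests on leaving the pair out: with all 15 arrays its r was 0.50, and within the 7 obese rats 0.25. Against the other Pdk4 probe set the same 5 genes had r of 0.50, 0.07, -0.003, 0.23 and 0.12, and the 2 Pdk4 probe sets had 0.37 with each other. Among the members the likeness was lowest for Pdhb at -0.67 (rank 10471) and Pdk1 at -0.66 (rank 10468), then Mpc1 at -0.60 (rank 10405).

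Around the members, 6 gene lists, written with earlier results of these data known, are described by their brightest probe sets without the pair. Over all 10514 genes 46.7% were positive, the median log2 fold change was -0.02, and limma called 91 higher and 25 lower in obese rats, or 1.10%. Of 7 genes that build, anchor or regulate the complex, 1 was positive, the median was -0.12 and none was called; Pdp1, the phosphatase that switches the complex back on, was at -0.18 ± 0.10 and Lias, which makes the lipoyl group of E2, at -0.22 ± 0.11 (SE). Of 10 genes of pyruvate supply and other uses 4 were positive (median -0.08, none called), among them Ldha, lactate dehydrogenase A, at 0.39 ± 0.11 and Me1, cytosolic malic enzyme, at 0.28 ± 0.09. Of 14 genes of the citric acid cycle past citrate, 10 were positive with a median of 0.11 and none was called, and Idh3g and Suclg1, subunits of isocitrate dehydrogenase and succinyl-CoA ligase, were at 0.26 ± 0.11 and 0.22 ± 0.10.

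Citrate export and the pyruvate-malate shuttle had 7 of 10 genes positive, a median of 0.13 and 1 call, the mitochondrial citrate carrier Slc25a1. Its signals ran from 7404 to 9502 in obese rats and 5192 to 7484 in lean rats, and its log2 fold change was 0.38 with all arrays and 0.44 ± 0.10 without the pair (SE; limma adjusted p = 0.105 and 0.0453). The call of Slc25a1 was kept in 5 of 23 alternatives, over which its adjusted p ran from 0.0167 to 0.205. It was lost in each of the 13 fits that left out 1 more rat. Of 17 genes that PPAR receptors are known to induce, as they do Pdk4, 15 were positive, with a median of 0.29 and 2 calls. Fabp3, a fatty acid binding protein, ran from 583 to 7028 in obese rats and 226 to 1321 in lean rats, at 2.38 ± 0.41 (adjusted p = 0.0181), and was called in 20 of 22 alternatives. Acaa2, a thiolase of fatty acid oxidation, ran from 2764 to 6187 in obese rats and 2346 to 3375 in lean rats, at 0.60 ± 0.13 (adjusted p = 0.0473), and was called in 6 of 23. Among the fits that left out 1 more rat, Acaa2 was called only in that without obese rat 2. With all 15 arrays neither Fabp3 nor Acaa2 passed, at 2.17 and 0.53 (adjusted p = 0.0948 and 0.112).

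Of 12 regulators and companion genes of Pdk4 transcription above the filter, 6 were positive, with a median of -0.03 and no call, and the PPAR and estrogen-related receptor genes Ppara and Esrra were below the filter. Fkbp5 and Tsc22d3, which glucocorticoids induce, were at 0.44 ± 0.12 and 0.37 ± 0.16 (SE; adjusted p = 0.0985 and 0.237). Median centring of the arrays moved the median of all probe sets to 0.07, against -0.04 as deposited. With that shift included, 3 of the 7 complex genes, 8 of the 10 pyruvate supply genes and 8 of the 12 regulators were above 0. The medians of these 3 lists were -0.002, 0.03 and 0.09, beside the 0.07 of all probe sets. The share of all probe sets above 0 after centring was not counted. In the same setting 7 of the 17 PPAR genes were called, beside 389 of all 18625 probe sets, and Pdk4 was at 1.14. As deposited, 189 of all probe sets were called. With quantile normalization 8 of the 14 cycle genes were positive and 1 PPAR gene was called, beside 124 of all probe sets.

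**Figure D4:**
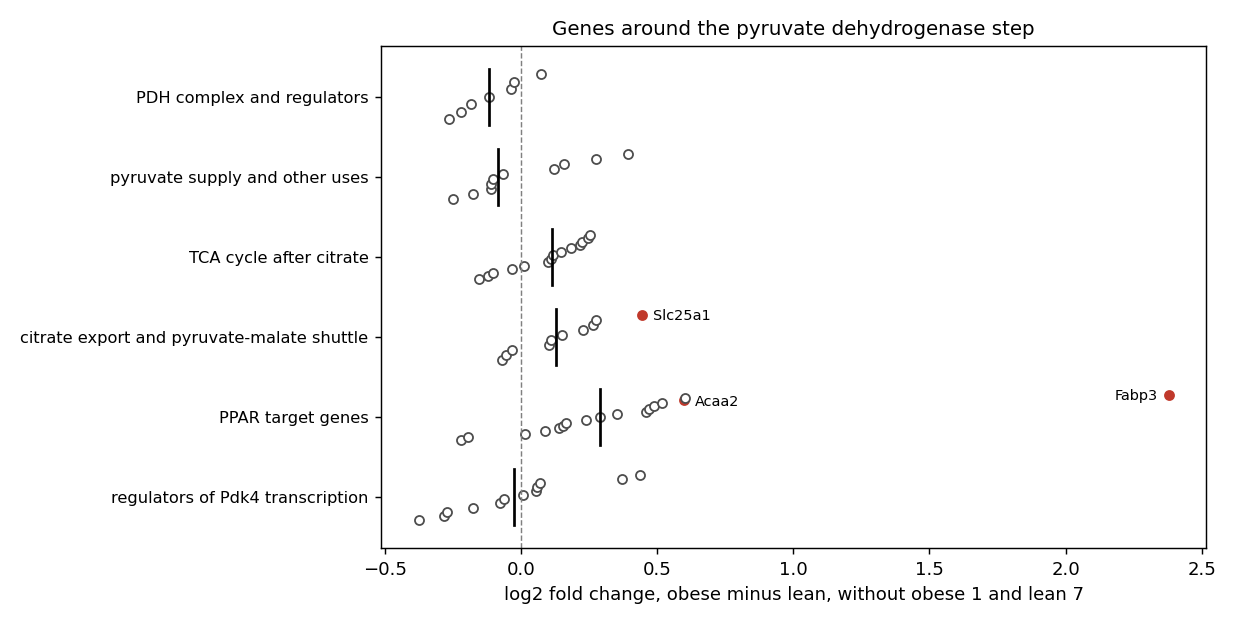
Log2 fold change, obese minus lean, without obese rat 1 and lean rat 7 (horizontal axis) of each gene of the 6 lists around pyruvate dehydrogenase, with a vertical bar at each list's median and red points for genes called at an adjusted p of 0.05. Slc25a1, Acaa2 and Fabp3 are the red points; the medians run from -0.12 to 0.29.

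Of the marker lists for other cells, macrophage markers and the 1 brown fat marker above the filter were higher in obese rats, as Pdk4 was, and no other of these lists held a call without the pair. Macrophage markers were positive in 10 of 10 genes without the pair, with a median log2 fold change of 0.57, and 4 (Cd68, Lgals3, Gpnmb and Laptm5) were called. Over all genes 46.7% were positive and 1.10% called. With all 15 arrays the median of these markers was 0.48 and none was called, as was no gene of the array. With each rat left out in addition to the pair, 2 to 4 were called. Their summed signal ran from 88483 to 252242 in obese rats and 63599 to 98245 in lean rats, and without the pair from 108366 to 252242 in obese rats and the same range in lean rats. Skeletal muscle markers, of interest since muscle is rich in Pdk4, had 5 of 11 genes above the filter, none positive and none called without the pair, and Acta1, Mb, Myh4, Myh2, Tnni2 and Tnnc2 below it; their summed signal was 15895 to 19899 in obese rats and 18017 to 22572 in lean rats. Of 5 brown fat markers Ucp1 and 3 more were below the filter, while Cidea was at 0.60 and called without the pair, and at 0.51 and not called with all 15 arrays (limma adjusted p = 0.0203 and 0.103). The summed signal of all 5 ran from 12355 to 23716 in obese rats and 11520.0 to 13987 in lean rats with all 15 arrays. Without the pair it ran from 16738 to 23716 in obese rats, above the same lean range. The 5 mesothelial markers measured were all negative (summed signal 13992 to 28416 in obese rats, 12478 to 35128 in lean rats), 3 of 4 endothelial markers were positive (12834 to 15778 in obese rats, 12322 to 16614 in lean rats), and both red cell markers measured were positive (51844 to 124639 in obese rats, 53687 to 81174 in lean rats), with none called. None of the 5 epididymal epithelium markers had a probe set of its own. The part of these cells and of RNA quality in the Pdk4 values was not tested.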

How the data were processed

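Epididymal fat of 7 diet-induced obese and 8 lean rats was profiled on 1 array each. The authors deposited linear intensity values, which the submitters' processing notes call MAS5, without a version. The labels and the design text differ on RNA input (6 and 5 micrograms) and on the extraction reagent. The members and gene lists were chosen with earlier results of these data known.

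Signals were used as log2(signal + 79.9), 79.9 being the 10th percentile, which understates the change of dim genes; low MAS5 signals are noisy because mismatch probes are subtracted. Probe sets with a mean above the 40th percentile were kept. Groups were compared over all 18625 with limma 3.58.1 in R 4.3.3 (lmFit, eBayes, Benjamini-Hochberg, threshold 0.05). The platform annotation named 1 gene for 20826 probe sets, several for 436 and none for 9780. Each gene was represented by the brightest of its probe sets. Nothing says that the rats came from separate litters, so p-values measure the spread between rats. Named outside the members were the called genes of each list, otherwise the 2 with the smallest p, and the 5 genes most like Pdk4. The exact permutation test of the Gapdh ratio used scipy 1.17.1. Those of the correlations went through every pairing of rats with numpy 2.4.6. The limma step, tested on simulated data with 50 of 18625 probe sets changed at each size, recovered 84% at a log2 change of 1 and 32% at 0.5 for the comparison without the pair. The simulated noise was drawn independently for each probe set and array, so these shares do not give the power on the real arrays. Alternatives were other pseudocounts, filters and scalings, the rat number as a block, the Gapdh ratio, weights per array, trend and robust eBayes, averaging the probe sets of a gene, and each rat left out.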

Additional observations from a re-analysis of the deposited data

Results flagged for a closer look

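Over the 14 member probe sets in 2 groups, 28 sets of rats were screened for a rat standing apart, by its gap to the nearest other rat as a share of the group's range; chance alone marks about 1 group in 20, and 6 were marked. The share was 0.71 for Mpc1 in lean rats, where rat 8 had 16287 and the other rats 9272 to 10892. It was 0.54 for Pdk4 on 1378074_at in lean rats, where the same rat 8 had 816 and the others 1288 to 1879. Lean rat 8 also had the lowest Gapdh log2 ratio of the lean rats, 0.56 against 0.95 to 1.38 in the others. It was 0.60 for Pdk1 on 1390203_at in obese rats, where rat 6 had 1449 and the others 2149 to 2789. It was 0.62 and 0.64 for Pdha1 on 1371380_at and 1383698_at in lean rats, where rat 1 was lowest on both, at 13357 and 1852. It was 0.67 for Pdha1 on 1383698_at in obese rats, where rat 2 had 1577 and the others 2745 to 3589.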

How the results depend on the processing

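With 15 arrays 0 probe sets passed, against 3 with no filter, 49 with a filter at the 60th percentile, 8 with trend and robust eBayes, and 0 to 245 with each rat left out, 245 without obese rat 1 and 1 without lean rat 7; Pdk4 on 1378074_at passed among the members without obese rat 1 (log2 fold change 1.04, adjusted p = 0.0104), so the count of members was 0 to 1. Without the pair 189 passed (71.4% higher in obese rats), against 123 with a pseudocount of 1, 46 with no filter, 334 with the 60th percentile, 389 with median centring (91.8% higher), 124 with quantile normalization, 14 with the Gapdh ratio, 309 with trend and robust, and 51 to 262 with each rat left out; the lowest, 51, was without lean rat 5. The rat number as a replicate block, to which obese rat 7 and lean rats 1 and 4 add nothing, left 3, and Pdk4 at 1.16 (adjusted p = 0.137). The count of members was 0, not 1, with no filter, the block, the Gapdh ratio and the mean over probe sets; it stayed at 1 with each rat left out, where Pdk4 ran from 0.90 to 1.10 (adjusted p = 0.0225 to 0.0488). The cause was not tested. Rats of the same number did not deviate together: over 7 shared numbers the correlation of their deviations ran from -0.11 to 0.24, and 1 obese rat correlated best with its own number. The correlations with Pdk4 passing numbered 0 to 1 with each rat left out, the 1 being Mpc1 in lean rats without lean rat 5 (adjusted p = 0.00635). With quantile normalization the rank correlation of Pdha1 in obese rats, obese rat 1 included, passed (exact permutation, adjusted p = 0.00635). Median centring turned the sign of Pdhb, Pdk1 on 1390203_at and Pdha1 on 1383698_at, quantile normalization that of Cs on 1375295_at, Mpc1 and Pcx, and the Gapdh ratio that of Mpc1 and Pdha1 on 1383698_at; the block turned Mpc1 without the pair. Leaving out 1 rat turned Pdk1 on 1390203_at (-0.11 to 0.04, positive without obese rat 6), Pdha1 on 1383698_at (-0.14 to 0.10, positive without obese rat 2) and Pcx (-0.02 to 0.05, negative without obese rat 5 or lean rat 1 or 3, and, with the pair out, without obese rat 3 too); none of these was called under any setting. Signals near background, as on the dim Pdk2 and Cs probe sets, limit what can be seen there.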
